A study of Mus musculus with 24 samples.

Results

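The genes of cyclooxygenase-2 and of prostaglandin synthesis and sensing were followed in 3 regions of the newborn mouse brain shortly after hypoxia-ischemia. They were chosen by name: Ptgs2, Pla2g4a, Hpgds, Ptger3 and Ptger4. All 5 were on the nCounter Mouse Neuroinflammation panel, which held 757 endogenous genes and which counts barcoded probes one molecule at a time without amplification. Ptgs2 was higher in every injured pup than in any sham pup in all 3 regions, by 3.03-fold in the cortex and, since sham levels elsewhere reached down to the background of the assay, by at least 2.62-fold in the striatum/thalamus and at least 2.04-fold in the cerebellum. The change passed the test in the cortex and striatum/thalamus and not in the cerebellum. Arms without overlap, with injured pups higher, were seen for 4.38% to 5.33% of all genes tested in a region. The other 4 genes did not pass the test for injury in any region, and 3 of them, Pla2g4a, Hpgds and Ptger3, differed between regions of sham pups. So did 40.0% to 67.2% of all genes tested, depending on the pair of regions.

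Prostaglandins are made from arachidonic acid, which cytosolic phospholipase A2, the product of Pla2g4a, releases from membranes. Cyclooxygenase-2, the product of Ptgs2, turns it into the common precursor of the prostaglandins, and hematopoietic prostaglandin D synthase, the product of Hpgds, turns that precursor into prostaglandin D2. Prostaglandin E2 acts on cells through receptors that include EP3 (Ptger3), which lowers cyclic AMP, and EP4 (Ptger4), which raises it. In the brain Ptgs2 is known as an immediate early gene of excitatory forebrain neurons, where synaptic activity induces it within minutes, and as an enzyme that inflammatory signals induce in cells of blood vessels and in macrophages. Hpgds is known in the brain as a gene of microglia.

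The animals were 8 CD1 pups of both sexes at postnatal day 9, all given isoflurane (5% to induce, 2.5% to maintain) and local bupivacaine, and all left to recover with the dam for 2 h after surgery. In the 4 HIBI (hypoxic-ischemic brain injury) pups, numbered 1, 4, 5 and 7, the right common carotid artery was cauterized and, after recovery, the pups breathed 8% oxygen for 30 min. The 4 sham pups, numbered 2, 3, 6 and 8, had the neck dissection with no ligation, and stayed in normal air. Every pup gave right cortex, right striatum/thalamus and right cerebellum, collected once 30 min had passed since hypoxia, so the 24 libraries hold 4 HIBI and 4 sham pups per region. In this model, the paper states, the cerebellum is exposed to hypoxia without ischemia, and no arm had hypoxia alone. Libraries held 855129 to 1134995 counts. The background of a library was taken as the mean plus 2 SD of its 8 negative control probes, which was 29.5 to 43.55 counts. Hpgds and Pla2g4a were above it in 24 of 24 libraries, Ptgs2 in 18, Ptger3 in 17 and Ptger4 in 14. Values below are normalized counts, in which library sizes were made equal by TMM scaling. Levels of different genes are not compared, because each probe has its own efficiency.

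Ptgs2 and Pla2g4a are neighbours on mouse chromosome 1, on opposite strands and pointing away from each other. In the RefSeq annotation of GRCm38.p6, Pla2g4a lies at chr1:149829618-149961290 on the minus strand and Ptgs2 at chr1:150100031-150108234 on the plus strand. The gap is 138740 bases and holds 2 annotated genes, of which 0 code for protein. Ptger3 lies on chromosome 3, Ptger4 on chromosome 15 and Hpgds on chromosome 6. The start regions of both neighbours, 250 bases before to 50 bases after the annotated start, are shown because one gene was higher in injured pups in every region and the other was not. Capitals mark, in the Ptgs2 sequence, first the C/EBP motif and then an overlapping cyclic AMP response element core and E-box, and no motif searched was found in the Pla2g4a sequence.
Ptgs2, chr1:150099781-150100080, plus strand: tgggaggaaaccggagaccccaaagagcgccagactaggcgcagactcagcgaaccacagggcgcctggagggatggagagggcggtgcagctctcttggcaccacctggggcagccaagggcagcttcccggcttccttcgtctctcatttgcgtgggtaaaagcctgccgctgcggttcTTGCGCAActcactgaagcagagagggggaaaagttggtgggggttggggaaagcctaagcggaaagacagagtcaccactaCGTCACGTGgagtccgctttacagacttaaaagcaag
Pla2g4a, chr1:149961241-149961540, minus strand: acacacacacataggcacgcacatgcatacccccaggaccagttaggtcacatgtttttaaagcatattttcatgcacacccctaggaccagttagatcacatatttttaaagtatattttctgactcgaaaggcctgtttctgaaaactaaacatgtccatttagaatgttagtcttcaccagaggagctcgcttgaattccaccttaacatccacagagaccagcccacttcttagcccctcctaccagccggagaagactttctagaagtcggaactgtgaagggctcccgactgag

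Both strands of the 5 windows were searched for 8 motifs. The C/EBP motif TTGCGCAA began 69 bases before the annotated start of Ptgs2, and 0.185% of the 27025 RefSeq windows of this length held it. The cyclic AMP response element core TGACG lay on the minus strand of Ptgs2, beginning 13 bases after the annotated start, and 21.0% of windows held it. The E-box CACGTG began 16 bases after that start, shares 2 letters with the core, and was in 7.24% of windows. The HIF core ACGTG was in 19.7% of windows, lies within that E-box on both strands in Ptgs2, and was also found in Ptger3, 179 bases before the start used for its window. Ptger4 held the CCAAT box (CCAAT, in 37.9% of windows) 75 bases before its start. The AP-1 motif TGANTCA (7.93% of windows), the NF-kappaB motif (0.385%) and the TATA box TATAAA (14.2%) were in none of the 5 windows, and Hpgds had no match to any of the 8. A match, or the lack of one, describes the letters of the window only, and the start used decides where the window lies. For Ptger3 and Hpgds that start lies inside the annotated gene. The whole Hpgds window, chr6:65144681-65144980, lies within its gene, chr6:65117293-65144981 on the minus strand, so it does not cover the outer start of that gene.

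In sham pups Ptgs2 was a gene of the cortex. It read 130.2, 64.4, 51.7 and 105 normalized counts in the cortex of sham pups 2, 3, 6 and 8. In the striatum/thalamus of the same pups it read 27.7, 31.0, 39.6 and 33.3, and in their cerebellum 20.8, 17.2, 31.9 and 35.2. Each pup thus had its highest Ptgs2 in the cortex, while 4 of 4 striatum/thalamus and 2 of 4 cerebellum libraries were not above background. The cortex exceeded the striatum/thalamus by a log2 difference of 1.35 (SE 0.27, adjusted p = 0.00225), which with the dim region set no lower than its background is at least 2.17-fold. It exceeded the cerebellum by 1.79 (SE 0.29, adjusted p = 0.000192), at least 2.39-fold with the same floor. Striatum/thalamus and cerebellum differed by 0.44 (95% CI -0.30 to 1.18, adjusted p = 0.269), so these neighbours in the order were not told apart.

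The other members had different regional orders in sham pups. Pla2g4a was highest in the cerebellum at 174.5 ± 28.0 (SD, n = 4), then striatum/thalamus at 112.7 ± 17.3, then cortex at 77.4 ± 3.03. All 3 steps passed the test: cortex lay below cerebellum by a log2 difference of -1.10 (SE 0.12, adjusted p = 1.2e-05), striatum/thalamus below cerebellum by -0.52 (SE 0.11, adjusted p = 0.00198), and cortex below striatum/thalamus by -0.58 (SE 0.13, adjusted p = 0.00386). Hpgds ran the other way, at 200.9 ± 24 in cortex, 180.0 ± 14.1 in striatum/thalamus and 112.4 ± 17.8 in cerebellum. Its cortex and striatum/thalamus exceeded the cerebellum by 0.91 (SE 0.11, adjusted p = 2.1e-05) and 0.79 (SE 0.11, adjusted p = 7.18e-05) on the log2 scale and were not told apart from each other (0.11, 95% CI -0.11 to 0.34). The summed level of the 15 microglia marker genes on the panel was also lower in sham cerebellum, at 4057 to 5642, than in sham cortex, at 8395 to 9512, and its part in the Hpgds difference was not tested. In bulk tissue, fewer cells of a type and less RNA per cell cannot be told apart.

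Of the receptors, Ptger3 differed between regions and Ptger4 did not pass. Ptger3 had 84.2 ± 7.32 normalized counts (SD, n = 4) in sham cortex and 65.9 ± 6.17 in sham striatum/thalamus. In sham cerebellum it had 25.3 ± 7.51, where 3 of 4 libraries were not above background. The differences from cerebellum were 1.81 (SE 0.18, adjusted p = 6.03e-06) for cortex, at least 2.49-fold with the floor at background, and 1.49 (SE 0.19, adjusted p = 4e-05) for striatum/thalamus, at least 1.95-fold. Cortex and striatum/thalamus were not told apart for this gene (0.31, 95% CI -0.03 to 0.65). Ptger4 stayed close to background in every sham region, at 38.5 ± 9.91 in cortex, 41.6 ± 6.46 in striatum/thalamus and 32.2 ± 5.35 in cerebellum. Its largest regional difference, striatum/thalamus over cerebellum, was 0.48 on the log2 scale (95% CI 0.01 to 0.95, adjusted p = 0.0717), and without the pup as a block it passed (adjusted p = 0.0379). In all, 4 of 5 members differed between cortex and cerebellum, 3 of 5 between striatum/thalamus and cerebellum and 2 of 5 between cortex and striatum/thalamus, beside 67.2%, 64.6% and 40.0% of all genes tested. Differences between regions were common on the panel, and these shares of members are not far from those of the panel as a whole.

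After HIBI, Ptgs2 was higher in the cortex of all 4 injured pups than in any sham pup. HIBI pups 1, 4, 5 and 7 read 180.6, 233.5, 296.1 and 344.8 normalized counts, against 51.7 to 130.2 in the sham pups. The group levels were 263.7 ± 71.7 and 87.7 ± 36.2 (SD, n = 4 each). The log2 fold change was 1.60 (SE 0.30, 95% CI 0.93 to 2.27, adjusted p = 0.0206), which is 3.03-fold. Ptgs2 was the only member of 5 that passed, beside 2.33% of 731 genes tested, and it stood at position 9 when these genes were ordered by fold change. The call ended when 1 pup, any of sham 3, HIBI 5, sham 6, HIBI 7 and sham 8, was left out, with adjusted p up to 0.0783. The log2 fold change ran from 1.41 to 1.85 as each pup was left out.

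In the striatum/thalamus the same gene rose from background. The 4 sham libraries, at 27.7 to 39.6 normalized counts, were not above background, and HIBI pups 1, 4, 5 and 7 read 57.6, 92.6, 125.4 and 145.5, each above it. The group levels were 105.3 ± 38.6 in HIBI and 32.9 ± 5.05 in sham pups (SD, n = 4 each). With sham libraries set no lower than their background, Ptgs2 was at least 2.62-fold higher, and the fitted log2 fold change was 1.68 (SE 0.28, 95% CI 1.05 to 2.31, adjusted p = 0.0182). Of 5 members 1 passed, again Ptgs2, beside 2.73% of 732 genes tested. The call ended without sham 3, HIBI 5, sham 6 or sham 8 (adjusted p up to 0.0665), with fold changes from 1.48 to 1.89 on the log2 scale.

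Markers of other cells moved with this comparison in the striatum/thalamus. Ttr, a marker of choroid plexus, read 3117 and 2396 in HIBI pups 4 and 5 and 68.5 to 146.9 in the other 6 libraries, and without those 2 pups the Ptgs2 change was 1.62 (adjusted p = 0.0328). The summed level of the perivascular macrophage markers on the panel, 2 of 7 listed (Cd163 and Ms4a4a), was 145.6 to 218.3 in HIBI and 83.9 to 102.3 in sham pups, with Ms4a4a higher by 1.07 (adjusted p = 0.0217). In the cerebellum that sum was also higher in HIBI pups, at 135.8 to 168.5 against 101.2 to 122.1, and in the cortex the arms overlapped. The part of these cells in the Ptgs2 change was not tested.

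In the cerebellum the arms also did not overlap for Ptgs2, but the change did not pass the test. HIBI pups 1, 4, 5 and 7 read 131.8, 68.3, 54.0 and 49.5 normalized counts, all above the 17.2 to 35.2 of the sham pups. The group levels were 75.9 ± 38.2 and 26.3 ± 8.65 (SD, n = 4 each), and 2 of the 4 sham libraries were not above background. The fitted log2 fold change was 1.54 (SE 0.38, 95% CI 0.69 to 2.38), with adjusted p = 0.148. With those libraries set no lower than their background, the fold was at least 2.04. With the mean of the negative probes subtracted, and counts left no lower than 1, the log2 change was 3.76 (SE 1.003, adjusted p = 0.232). Sham pups 2 and 3 read 22 and 18 raw counts there, against negative means of 21.25 and 19.5, so the 3.76 rests in part on that floor. Of 5 members 0 passed here, beside 0.420% of 714 genes tested. Other count models, DESeq2 (1.54, adjusted p = 0.00288) and a single edgeR fit of all 24 libraries (1.52, adjusted p = 0.0322), did pass Ptgs2 in the cerebellum. Those fits passed 15 and 49 genes there, against 3. Ptgs2 did not pass with limma-voom (adjusted p = 0.175), or in edgeR with reference-gene scaling (0.116), no filter (0.153) or Uty as a covariate (0.373). Nor did it pass with any pup left out, where its log2 fold change ran from 1.12 to 1.73.

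**Figure D1:**
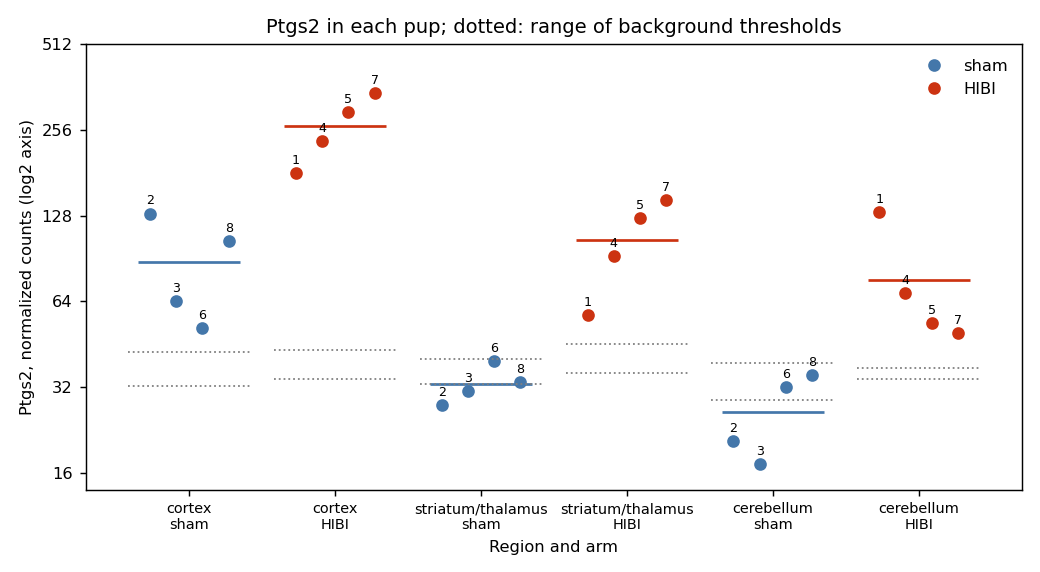
Ptgs2 in each library, in normalized counts on a log2 axis, by region and arm. Points are single pups with their numbers, bars are group means and dotted lines give the range of background (mean plus 2 SD of the negative probes) in that group. HIBI pups lie above all sham pups in each region, and the sham striatum/thalamus libraries, at 27.7 to 39.6, lie at background.

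An exact two-sided permutation test of the log2 values gave p = 0.0286 for Ptgs2 in each of the 3 regions, the smallest p that 4 pups against 4 allow. Over the 15 tests of 5 genes in 3 regions, the adjusted value of this exact test was 0.143 in each region. With 3 of 15 tests at the smallest p, no adjusted value under 0.05 was possible. Arms without overlap always give that smallest p, so the exact test restates the lack of overlap. Ptgs2 was the only member without overlap between the arms, in 3 of 3 regions. Such arms were seen for 6.02% of genes tested in the cortex, 9.43% in the striatum/thalamus and 7.14% in the cerebellum, and with HIBI higher for 4.38%, 5.33% and 4.48%. At an unadjusted p under 0.05 from edgeR, 1 of 5 members, Ptgs2, passed in each region, beside 9.44% of genes in the cortex, 18.3% in the striatum/thalamus and 16.4% in the cerebellum.

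No test told the size of the Ptgs2 change apart between regions, but sham levels at background in the striatum/thalamus and in 2 of 4 cerebellum libraries leave the fold there unsettled. The HIBI effect in cortex minus that in cerebellum was 0.05 on the log2 scale (SE 0.57, 95% CI -1.16 to 1.27), striatum/thalamus minus cerebellum was 0.10 (SE 0.59, 95% CI -1.14 to 1.34) and cortex minus striatum/thalamus was -0.05 (SE 0.49, 95% CI -1.09 to 0.99). These intervals are wide, and 5 of their 6 limits lie beyond 1 on the log2 scale, which is 2-fold. With the negative probes subtracted, the change was 2.01 in cortex, 2.82 in striatum/thalamus and 3.76 in cerebellum on the log2 scale. The cerebellum value rests in part on the floor of 1 count used there, and the difference between those values was not tested. None of the 5 members passed these interaction tests, beside 0%, 0.805% and 0% of 745 genes.

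The order of the 4 injured pups was not the same in every region. Relative to the sham mean of the region, pup 1 had the smallest Ptgs2 level in cortex (2.06 times) and in striatum/thalamus (1.75 times), and the largest in cerebellum (5.02 times). Pup 7 had the largest in cortex (3.93 times) and in striatum/thalamus (4.42 times), and the smallest in cerebellum (1.88 times). Pups 4 and 5 lay between them in all 3 regions. The immediate early genes Fos and Egr1 showed the same contrast between pups 1 and 7 in cortex and cerebellum. Fos was 13.9 times its sham mean in the cerebellum of pup 1 and no higher than that mean in pup 7, against 5.02 and 35.4 times in the cortex. Egr1 was 6.82 and 1.38 times its sham mean in the cerebellum of pups 1 and 7, and 1.47 and 3.27 times in their cortex. In the striatum/thalamus the order of pups differed from that of Ptgs2, with pups 4 and 5 above pup 7 for both genes. Fos was 4.398, 13.47, 15.25 and 6.919 times its sham mean there in pups 1, 4, 5 and 7. Egr1 was 2.756, 6.385, 7.385 and 3.172 times. With a single library per pup and region, the order of pups has no replicate check.

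The enzyme that supplies arachidonic acid did not follow Ptgs2. Pla2g4a read 76.8, 89.2, 113.5 and 70.8 normalized counts in the striatum/thalamus of HIBI pups 1, 4, 5 and 7, against 108.9, 122.9, 129.0 and 90.1 in sham pups 2, 3, 6 and 8. Of the HIBI pups, 1, 4 and 7 were below the lowest sham pup, and pup 5 was within the sham range. The log2 fold change was -0.37 (SE 0.17, 95% CI -0.75 to 0.01, adjusted p = 0.287), and without the Ttr-rich pups 4 and 5 it was -0.62 (adjusted p = 0.0614), so it did not pass. In cortex the change was 0.06 (SE 0.14, 95% CI -0.25 to 0.37). In cerebellum it was 0.08 (SE 0.26, 95% CI -0.50 to 0.66), with the injured pups split: pups 1 and 5 read 231.8 and 247.2, above every sham pup (143.7 to 205.0), and pups 4 and 7 read 134.3 and 117.6, below every sham pup.

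Markers of oligodendrocytes moved with Pla2g4a among those cerebellum libraries. The summed level of the 10 oligodendrocyte marker genes on the panel was 92152 and 90409 normalized counts in the cerebellum of pups 1 and 5, and 61680 and 55884 in pups 4 and 7, with sham pups at 55413 to 78459. In the striatum/thalamus the sum was 24874, 40453, 32181 and 18179 in HIBI pups 1, 4, 5 and 7 and 26369 to 43671 in sham pups. Pup 4 went against Pla2g4a there, with a sum above 3 of 4 sham pups and a Pla2g4a level below all 4. In that region all 10 of its genes had log2 fold changes below 0, with 0 past the threshold. Its part in the Pla2g4a values was not tested.

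Prostaglandin D synthase and both receptors did not pass the test in any region, and the intervals were narrowest for the synthase. Hpgds changed by 0.12 (95% CI -0.11 to 0.35) in cortex, 0.14 (95% CI -0.13 to 0.42) in striatum/thalamus and 0.17 (95% CI -0.15 to 0.50) in cerebellum, on the log2 scale, with adjusted p from 0.518 to 0.776. Every one of these intervals excludes a 1.5-fold change. That did not hold for the cerebellum under all alternatives. Its upper limit passed 1.5-fold with reference-gene scaling (0.62), with the negative probes subtracted (0.63) and without sham pup 6 (0.59). Ptger3 changed by -0.09 (95% CI -0.41 to 0.23) in cortex and -0.12 (95% CI -0.41 to 0.16) in striatum/thalamus. In the cerebellum it was not above background in any HIBI library nor in 3 of 4 sham libraries, so no fold is given. Ptger4 changed by 0.29 (95% CI -0.22 to 0.80) in cortex, where HIBI pup 5 read 64.6 and the other 3 HIBI pups 37.0 to 44.1, and by 0.11 (95% CI -0.20 to 0.42) in striatum/thalamus. In the cerebellum it read 23.9 to 40.2 in HIBI and 25.5 to 38.1 in sham pups, with 1 HIBI and 2 sham libraries of 4 each above background. The fitted change was -0.04 (95% CI -0.49 to 0.41), but with most libraries at background this interval does not bound the change. With the negative probes subtracted it was -0.47 (95% CI -2.19 to 1.25).

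**Figure D2:**
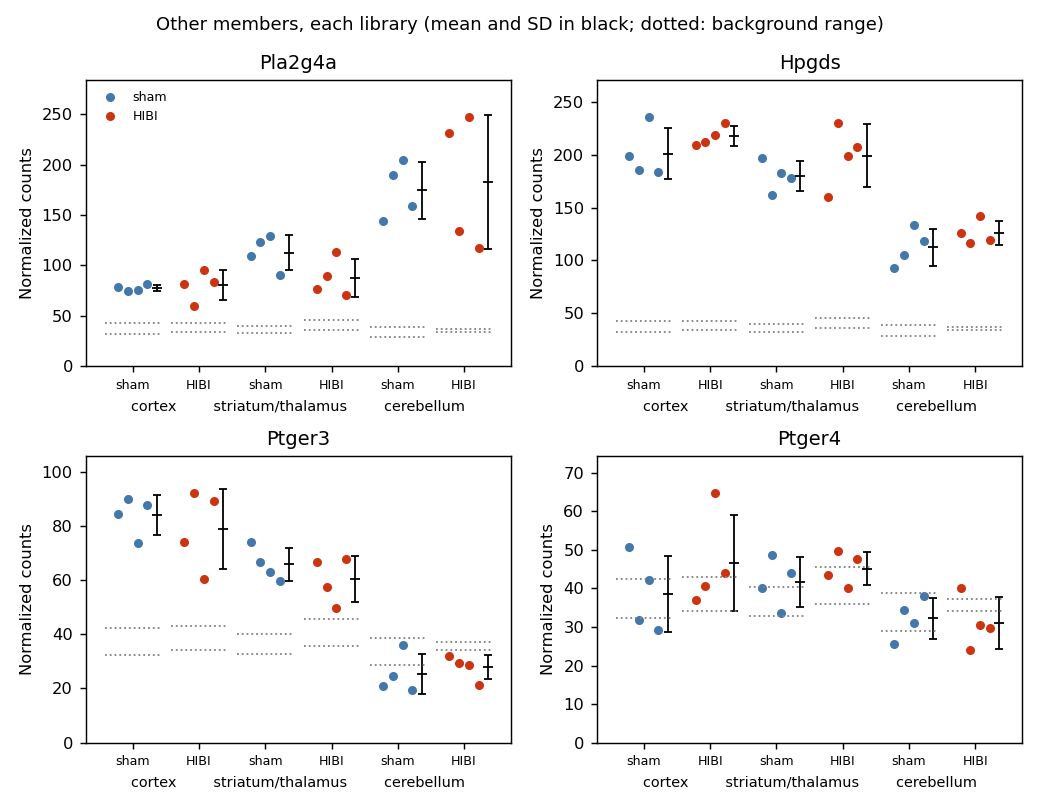
Normalized counts of Pla2g4a, Hpgds, Ptger3 and Ptger4 in each library, by region and arm, with the mean and SD of 4 pups in black and the range of background dotted. Both arms overlap for each of these genes in every region, and Ptger3 and Ptger4 lie at or near background in the cerebellum.

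**Figure D3:**
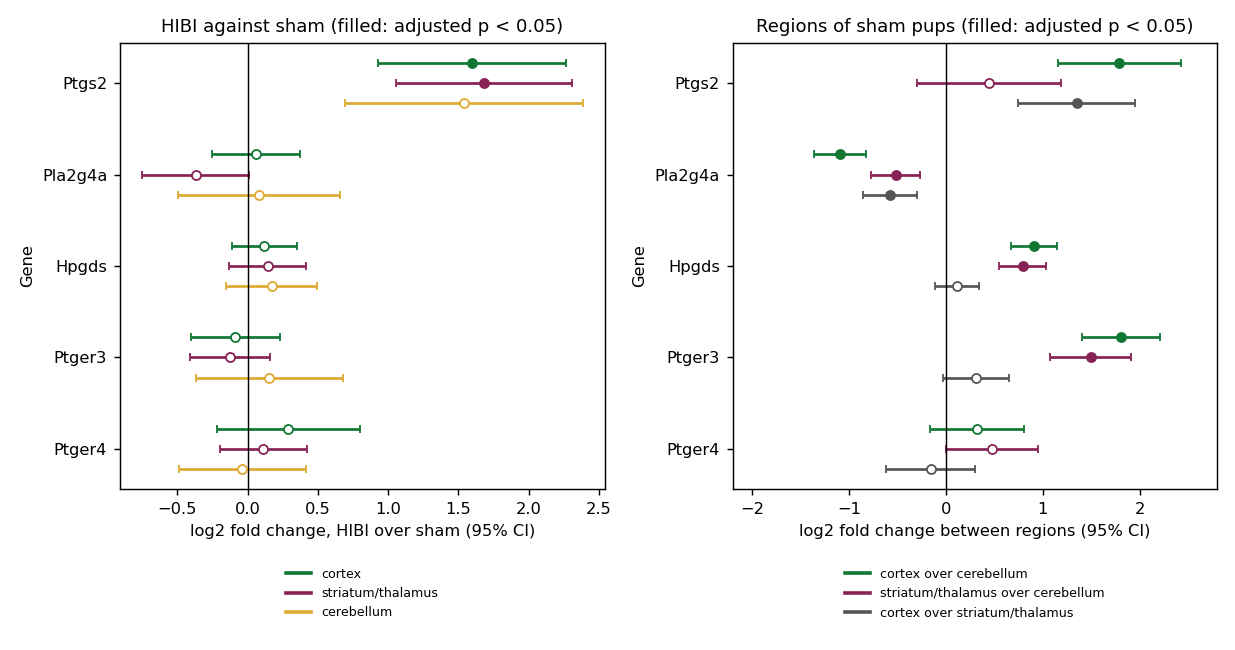
Log2 fold changes of the 5 members with 95% intervals, HIBI over sham in 3 regions on the left and regions of sham pups on the right, with filled points where the adjusted p is under 0.05. On the left, filled points belong to Ptgs2 in cortex (1.60) and striatum/thalamus (1.68), and on the right 9 of 15 points are filled.

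The rest of the prostaglandin and leukotriene pathway was thinly covered. Of 59 other eicosanoid genes listed (phospholipases, cyclooxygenases, synthases, receptors, leukotriene enzymes and resolution receptors), 4 were on the panel: Pla2g5, a secreted phospholipase A2, Ltc4s, the leukotriene C4 synthase, Anxa1, the annexin known to restrain phospholipase A2, and its receptor gene Fpr1. None of the 4 passed in any region, and at an unadjusted p under 0.05 from edgeR 1 did in cortex (Ltc4s) and 0 in the other regions. Their median log2 fold change was 0.12 in cortex, 0.13 in striatum/thalamus and -0.03 in cerebellum, beside -0.01, 0.00 and 0.00 for all genes tested. These medians include Ltc4s and Fpr1, which lay at or near background, and so say little. Anxa1 had -0.12, 0.06 and -0.02 in cortex, striatum/thalamus and cerebellum, and Pla2g5 had -0.11, -0.08 and -0.12. The smallest p was that of Ltc4s in cortex, at 30.7 to 41.1 in sham pups, with 1 of 4 libraries above background, and 40.3 to 53.2 in HIBI pups, with 3 of 4, so no fold is given (adjusted p = 0.462). Fpr1 was not above background in any group. Ptgs1, the constitutive cyclooxygenase, and the prostaglandin E synthases were not among the panel genes used here.

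Among genes known to act upstream of Ptgs2, 3 immediate early factors rose in the cortex and 2 in the striatum/thalamus, and no cytokine or NF-kappaB gene passed. Of 23 such genes listed, 15 were on the panel, so 3 of 15 passed in cortex and 2 of 15 in striatum/thalamus, beside 2.33% and 2.73% of all genes tested. The list was chosen with earlier results of these data known, so these shares are no test of the list. Fos, a subunit of AP-1, rose by 4.29 on the log2 scale in cortex (SE 0.54, adjusted p = 0.0051) and by 3.32 in striatum/thalamus (SE 0.40, adjusted p = 0.00372). Egr1, a zinc finger factor induced by activity, rose by 1.31 in cortex (SE 0.24, adjusted p = 0.0206) and by 2.30 in striatum/thalamus (SE 0.31, adjusted p = 0.00592). Jun, the partner of Fos, rose in cortex by 1.75 (SE 0.31, adjusted p = 0.0186) and had 0.96 in striatum/thalamus (adjusted p = 0.0896). In the cerebellum 0 of 14 tested passed, beside 0.420% of all genes, with Egr1 at 1.98 (adjusted p = 0.144), Fos at 2.42 (adjusted p = 0.242) and Creb1, the cyclic AMP response factor, at -0.41 (adjusted p = 0.0935). Of the inflammatory inducers, named here after their values were seen, Il1b and Tnf were not above background in any of the 24 libraries, so no fold is given. The NF-kappaB subunit gene Nfkb2 had 0.46 in cortex (adjusted p = 0.168) and 0.36 in striatum/thalamus (adjusted p = 0.329), and Nfkb1 and Rela lay between -0.04 and 0.11 in these regions. The TNF receptor gene Tnfrsf1a had 0.38 in striatum/thalamus (adjusted p = 0.0556), at 263.9 ± 20.4 normalized counts in HIBI and 202.1 ± 12.9 in sham pups (SD, n = 4 each). Il1a was above background in 2 of 4 HIBI and 1 of 4 sham libraries of the cortex and in none of the other regions. The median over the tested genes of the list, those at background included, was 0.09 in cortex, 0.11 in striatum/thalamus and 0.04 in cerebellum. For all genes tested it was -0.01, 0.00 and 0.00.

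The panel genes whose levels tracked each member most closely over the 24 libraries differed by member. These are Pearson correlations of log2 normalized counts, given as a description, over libraries that share 8 pups, 3 regions and 2 arms. Ptgs2 was most like Egr1 (r = 0.924), Arc (r = 0.897), both immediate early genes, and Tyrobp (r = 0.866), a microglial adaptor. Pla2g4a was close to the myelin genes Ugt8a (r = 0.951) and Cnp (r = 0.949), and Hpgds was most like Cx3cr1 (r = 0.943) and Csf1r (r = 0.929), receptors of microglia, with Fscn1 (r = 0.938). Ptger3 was most like Map2k4 (r = 0.965), Fgf13 (r = 0.960) and Fscn1 (r = 0.959). Ptger4 had no close match, with Blnk (r = 0.689) first.

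The same correlations were taken after the sham mean of each region was subtracted, which removes the baseline differences between regions. Ptgs2 was then most like Egr1 (r = 0.882), Fos (r = 0.874) and Maff (r = 0.857), a small Maf factor. Within each arm, with the arm's own mean in each region subtracted, its r with Egr1 was 0.838 in the 12 sham and 0.715 in the 12 HIBI libraries. With Fos it was 0.52 and 0.823. In sham pups, 4 of 4 striatum/thalamus and 2 of 4 cerebellum libraries were not above background for Ptgs2. Over all 24 libraries Pla2g4a was most like Bcas1 (r = 0.907), Myrf (r = 0.867) and Cnp (r = 0.865), all genes of myelinating oligodendrocytes. Taken within arms in the same way, its r with Bcas1 was 0.909 in sham and 0.892 in HIBI libraries. Hpgds was most like Csf1r (r = 0.797), C1qb (r = 0.723) and Cxcl10 (r = 0.702). Ptger3 was most like Map2k4 (r = 0.710), Tubb3 (r = 0.687) and Iqsec1 (r = 0.676), and Ptger4 like Tnfrsf12a (r = 0.566), Bag3 (r = 0.563) and Jun (r = 0.559). Among the members, Ptgs2 had r = -0.04 with its neighbour Pla2g4a, 0.01 with Ptger3, 0.348 with Ptger4 and 0.491 with Hpgds on these values.

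**Figure D4:**
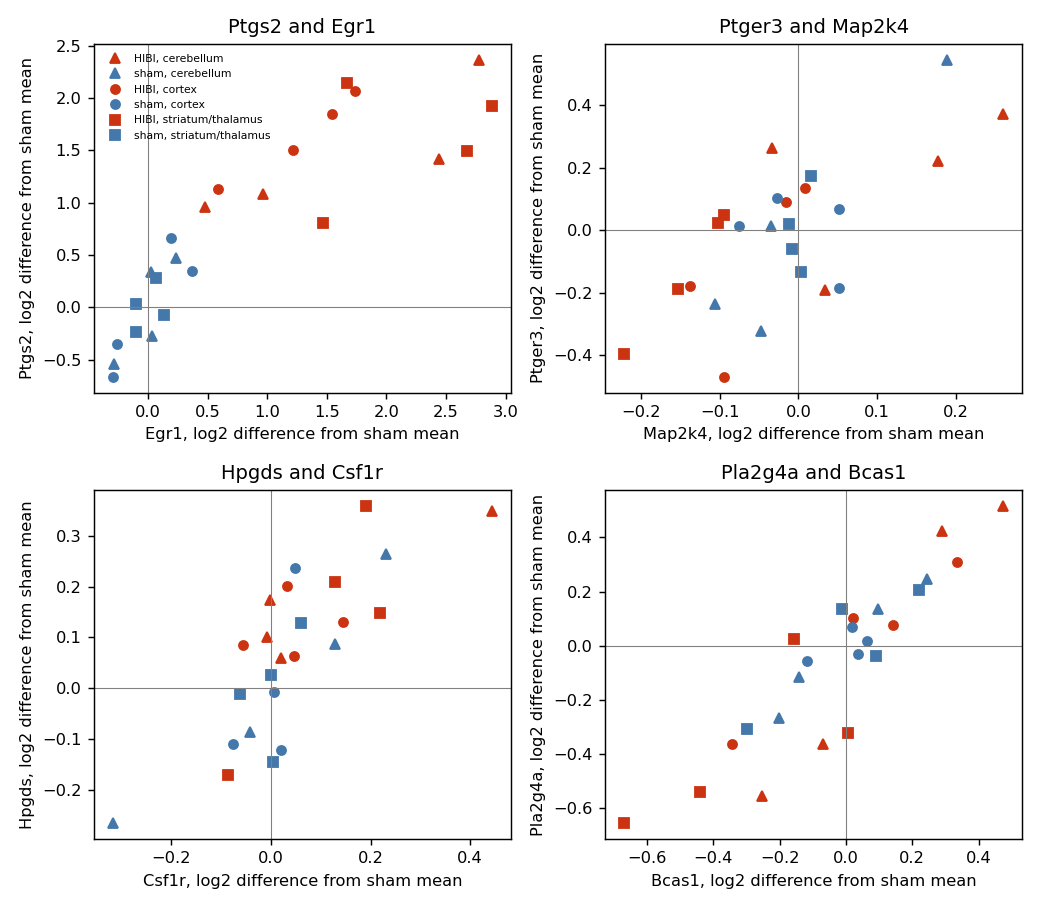
For 4 members, the log2 difference of each library from the sham mean of its region against the same difference of its most similar panel gene, with regions as marker shapes and arms as colours (24 libraries a panel). Ptgs2 and Egr1 (r = 0.882) spread along the injured libraries, and Pla2g4a and Bcas1 (r = 0.907) spread within both arms.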

How the data were processed

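RNA from 24 tissue samples was hybridized to the nCounter panel. The authors deposited the raw barcode counts of 784 probes per sample, with no scaling. A further table of the authors (group means, SDs, ratios and p-values from nSolver, whose settings the sources used here do not give) served only for the class and identity of each probe (deposited as text). Counts were tested with edgeR 4.0.16 under R 4.3.3, with limma 3.58.1 for the alternatives by limma and voom. Endogenous genes with at least 20 counts in at least 4 fitted libraries were kept, scaled by TMM, and tested with the two-sided quasi-likelihood F test and Benjamini-Hochberg adjustment over all genes kept, with 0.05 as the threshold. HIBI and sham were compared within each region (8 libraries). Regions of sham pups, and differences of the HIBI effect between regions, were tested with the pup as a fixed block, since the labels give the same subject number to the 3 regions of a pup (same-numbered libraries deviated together with r from -0.06 to 0.563, median 0.21). Groups follow the labels. Alternatives were scaling by the 13 reference genes, DESeq2 1.42.0, limma-voom, no filter, subtraction of the negative probes, Uty (male pups) as a covariate, a fit of all libraries, no block, and leaving out each pup or the Ttr-rich libraries. Tests were checked on simulated counts. Text names the 5 members in every comparison, listed pathway genes that passed or otherwise those with the smallest p (exceptions are marked), and the 3 genes most like each member, some of which are not reported here. Members, lists and the Ttr-rich libraries were chosen with earlier results of these data known. Promoter windows and positions are from RefSeq (GRCm38.p6), which matched 5 of 5 members. "At least" folds compare mean log2 values with the dimmer group set no lower than each library's background. The counting precision of a gene follows from its own count. For Ptgs2 in sham cerebellum, at 18 to 36 raw counts, the counting SD (square root of the mean count) was 5.17.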

Additional observations from a re-analysis of the deposited data

How the results depend on the processing

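The rise of Ptgs2 kept its direction in every region under all alternatives run. In the cerebellum the count of members that passed was 1 with DESeq2 (Ptgs2, log2 fold change 1.545) and 1 in a fit of all 24 libraries (1.524), against 0 as reported, and the cause was not tested. With each pup left out in turn, the members that passed were 0 to 1 in the cortex, 0 to 1 in the striatum/thalamus and 0 in the cerebellum. The log2 fold change of Ptgs2 was then 1.41 to 1.849, 1.477 to 1.885 and 1.12 to 1.727. These fits have fewer samples. With the negative probes subtracted, Ptgs2 was at 2.01, 2.82 and 3.76 in cortex, striatum/thalamus and cerebellum, the last resting in part on the floor of 1 count.

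Changes near 0 that never passed also changed sign. Ptger3 was at 0.0052 in cortex with reference-gene scaling and at 0.021 in striatum/thalamus without the Ttr-rich libraries, and Ptger4 at 0.074 in cerebellum with reference-gene scaling. Leaving out 1 pup gave -0.159 to 0.0162 for Ptger3 and -0.0457 to 0.184 for Pla2g4a in cortex, -0.186 to 0.0644 for Ptger4 and -0.0992 to 0.272 for Pla2g4a in cerebellum, and -0.339 to 0.0063 for Ptger4 in sham cortex over striatum/thalamus. The difference of the Ptgs2 effect between regions ran from -0.254 to 0.626 for cortex minus cerebellum, -0.246 to 0.745 for striatum/thalamus minus cerebellum and -0.342 to 0.273 for cortex minus striatum/thalamus. It was -0.0070 for striatum/thalamus minus cerebellum with reference-gene scaling, and 0.031 with that scaling and 0.012 with limma-voom for cortex minus striatum/thalamus.

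Over all genes, 27 passed in the cortex with reference-gene scaling and 11 with limma-voom, against 17. In the striatum/thalamus 42 passed with DESeq2, 33 with Uty as a covariate and 50 without the Ttr-rich libraries, against 20. In the cerebellum 5, 15, 0 and 49 passed with reference-gene scaling, DESeq2, Uty and the fit of all libraries, against 3. Leaving out 1 pup gave 7 to 22, 5 to 56 and 0 to 7. For the difference between striatum/thalamus and cerebellum, 14 passed with reference-gene scaling and 11 with DESeq2, against 6, and leaving out 1 pup gave 0 to 16. For cortex minus cerebellum 2 passed with DESeq2, and up to 12 with a pup left out, against 0, and for cortex minus striatum/thalamus 1 passed with DESeq2, against 0.

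Without the pup as a block (no replicate block), 4 members passed between sham cortex and cerebellum, 4 between striatum/thalamus and cerebellum and 2 between cortex and striatum/thalamus. The added call was Ptger4 (0.48, adjusted p = 0.0379), which also passed with reference-gene scaling (0.58, adjusted p = 0.0349). The Ptgs2 interaction was then 0.07, 0.16 and -0.09, with 0 members past the threshold, and no other call of a member changed. Ptgs2 in 6, Ptger3 in 7 and Ptger4 in 10 of 24 libraries were not above background, which limits their folds.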
